A study of Rattus norvegicus with 24 samples.

Results

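Levels of the messenger RNAs of 9 enzymes of glycolysis and lactate metabolism and of Gpd1, the cytosolic glycerol-3-phosphate dehydrogenase, were followed in rat tibialis anterior muscle during daily resistance training. These 10 genes (Pfkm, Aldoa, Gapdh, Pgam2, Eno3, Eno1, Pkm, Ldha, Ldhb and Gpd1) were taken by their gene symbols, and 9 of them have a transcript in the deposited table, which holds 15273 gene symbols. Gapdh is the gene without one. The 9 genes have 13 of the 20027 transcripts, and all 9 passed the filter on low values, which left 11196 genes to test.

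Adult male Wistar rats carried an implanted pulse generator that stimulated the common peroneal nerve of the left leg, so that the left tibialis anterior did a bout of loaded contractions each day, while the right leg was left unstimulated. Both muscles were taken an hour after the last bout, at 2, 10, 20 or 30 days, with 3 animals at each time point. That made 24 samples from 12 animals: 3 trained left muscles at each time point and 12 contralateral right muscles, which served together as the control group. The series description speaks of 4 animals for each time point, and the samples hold 3. A contralateral muscle comes from the same animal as a trained one, so whatever training does to the whole animal reaches both.

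Glycolysis turns glucose into pyruvate in the cytosol, and fast-twitch fibres, which dominate the rat tibialis anterior, rely on it for short, intense work. Several steps have a form made mainly in adult muscle (Pfkm, Pgam2, Eno3) beside forms found in most tissues (Pfkp, Pgam1, Eno1). Lactate dehydrogenase is built from A and B subunits, the A subunit (Ldha) being abundant in fast fibres and the B subunit (Ldhb) in slow fibres and heart, and Gpd1 draws off a glycolytic intermediate to make glycerol 3-phosphate, which passes electrons to the mitochondria or enters lipid synthesis.

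The deposited values sum to 634431 in each sample and were therefore treated as TPM-type, that is, as scaled for transcript length, which was not tested. They keep no read counts, so the depth behind each value, and the precision it gives, cannot be read from them. A level below is such a value divided by the sample's median-of-ratios factor and summed over the transcripts of the gene, and a log2 fold change is the difference of mean log2(level + 1) from limma, with the 12 control muscles as reference. A gene passed when its p-value, adjusted by the Benjamini-Hochberg method over all 11196 genes, was under 0.05. The 4 comparisons with control share the same 12 muscles, and their results are therefore not independent of each other.

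In control muscle the levels ran from Aldoa, at 9395 ± 791 (SD, n = 12), through Eno3, at 5101 ± 478, and Pgam2, at 2769.5 ± 323. Next came Pkm at 1431 ± 123, Ldha at 1315 ± 117 and Pfkm at 1229.8 ± 96.2, which did not differ from the neighbour in this order by more than the spread. Gpd1 had 324 ± 35.2, Ldhb 90.1 ± 19.3 and Eno1 28.4 ± 4.61. The 9 genes together held 3.42% of the deposited total in control muscle (lowest 2.82%, highest 3.80%) and, on average, 2.83%, 3.15%, 3.43% and 2.96% after 2, 10, 20 and 30 days of training.

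Aldoa has 3 deposited transcripts, of which Aldoa-202 held 93.6%, Aldoa-201 5.10% and Aldoa-203 1.30% of the gene's level. Pfkm and Eno1 have 2 each, and the main one held 99.7% in both. The other 6 genes have 1 each, so the M1 and M2 forms of Pkm cannot be told apart here.

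After 2 days of training 7 of the 9 genes passed, where 28.9% of all genes passed. Of them 6 were lower, against 13.5% of all genes, and 1 was higher, against 15.4%. At 10 days 4 of 9 passed, again where 28.9% of all genes did, and all 4 were lower, against 13.3%. Gpd1 alone passed at 20 and at 30 days, 1 of 9 each time, where 21.4% and 20.6% of all genes passed and 9.64% and 9.46% were lower. In whole muscle, fewer cells of a type and less RNA per cell cannot be told apart. The share of the 9 genes that passed was above that of all genes at 2 and 10 days in this fit and below it later.

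The median log2 fold change of the 9 genes was -0.41, -0.27, -0.06 and 0.01 at the 4 times in order. Over all genes the medians were -0.014, -0.029, -0.029 and -0.0059. Against the time-matched contralateral muscles the count at 10 days was 1 of 9, where 17.9% of all genes passed, and those at 20 and 30 days were 0 (limma, with 2 and 1 of the 9 genes at an unadjusted p under 0.05), where 14.2% and 10.0% did. With animal as a block it was 1 of 9 at 10 days, where 20.1% of all genes passed, so in both the share of the 9 genes at 10 days was the smaller one. At 2 days 6 of 9 passed in both, where 19.6% and 21.6% of all genes did. Without the second muscle trained for 2 days the count at 2 days was 2 (Pgam2 and Gpd1), where 13.5% of all genes passed, and without the first or the second muscle trained for 10 days the count at 10 days was 1 or 2, where 19.2% or 22.0% did. Without the first muscle trained for 20 days, Ldha passed beside Gpd1, and without the third, Aldoa passed alone, where 15.8% and 17.6% of all genes passed.

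**Figure D1:**
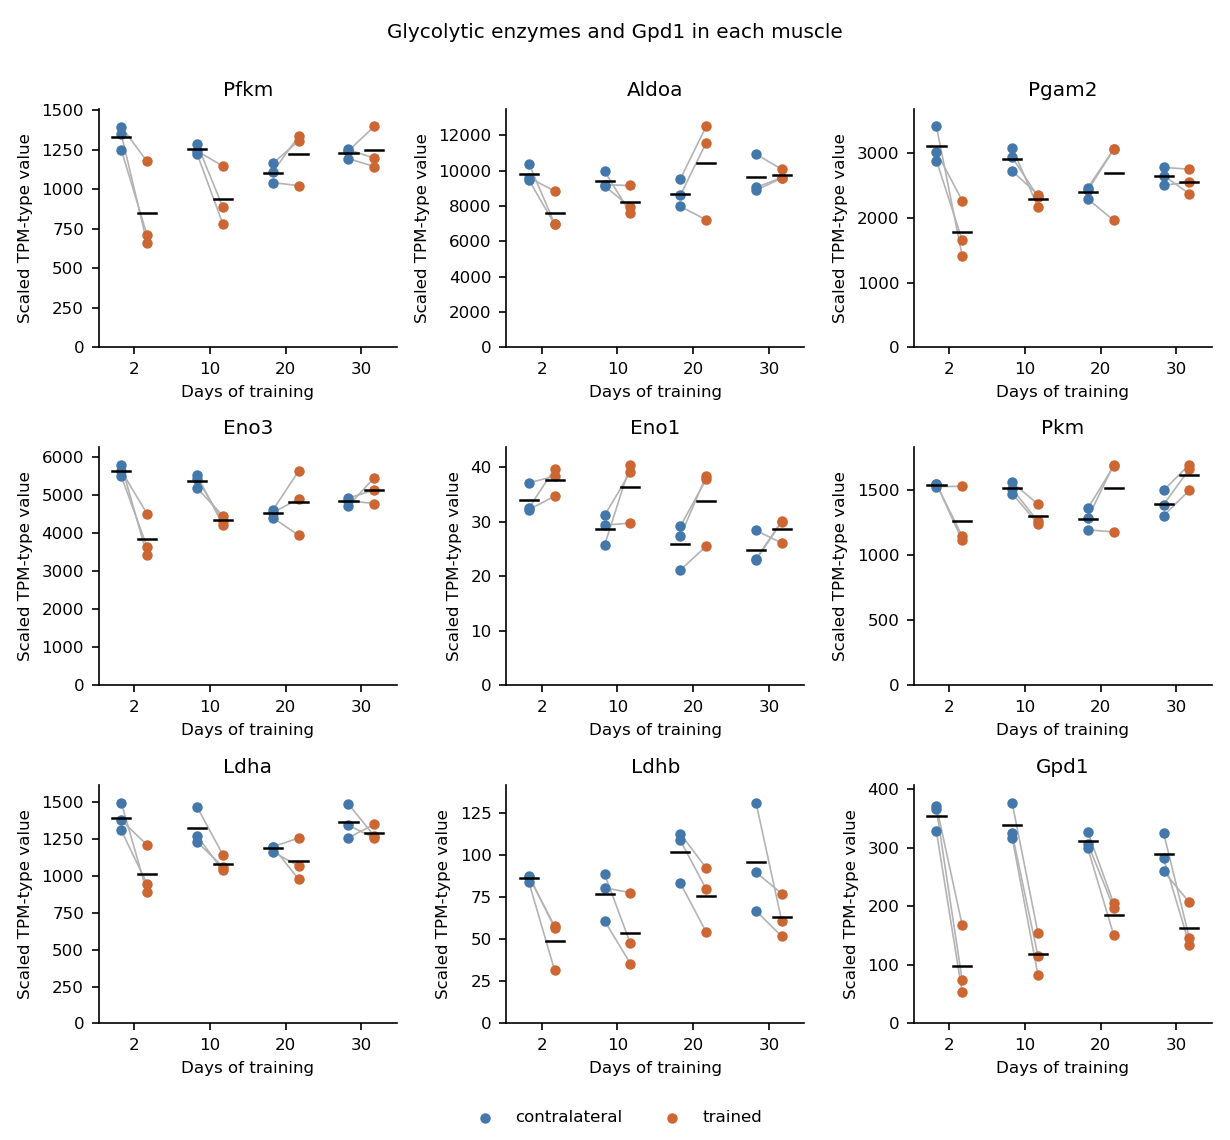
Level of each of the 9 genes in every muscle (vertical axis, scaled TPM-type value, each panel from 0) against the day of training (horizontal axis), with trained muscles and their contralateral controls as separate points. Gpd1 is lower in all 12 trained muscles than in any control muscle, while most other panels show the trained muscles low at 2 days and among the controls by 30 days.

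Phosphofructokinase commits sugar to glycolysis, and Pfkm encodes its muscle form (Pfkm-201, Rnor_6.0 chromosome 7 from 139698148 to 139722133). In the 3 muscles trained for 2 days its level was 1177, 660.0 and 709.6, and at 10 days 888, 782 and 1147. The control muscles lay between 1042 and 1398 (median 1244). At both times 1 trained muscle fell inside the range of the controls and the other 2 lay below it.

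Pfkm fell at 2 days, with a log2 fold change of -0.58 (standard error 0.13, limma adjusted p = 0.00216), and at 10 days, with -0.40 (standard error 0.13, adjusted p = 0.0268). Later values were -0.02 at 20 days and 0.02 at 30 days (limma adjusted p = 0.952 and 0.945), with 95% intervals of -0.29 to 0.26 and -0.26 to 0.30. The fall at 10 days was the less stable one. With animal as a block it was -0.43 and did not pass (adjusted p = 0.0593), nor did it pass as deposited (-0.28) or in the gene-level table (-0.32). Leaving out the first or the second muscle trained for 10 days gave -0.37 or -0.28, neither passing, and at 2 days the fall did not pass without the second muscle (-0.42, adjusted p = 0.0659).

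Aldolase A, encoded by Aldoa, splits fructose 1,6-bisphosphate and was the most abundant of the 9 messenger RNAs. Its levels at 2 days were 8843, 6992 and 6961, against 7974 to 10929.6 (median 9334) in the controls. Log2 fold changes of -0.31, -0.19, 0.12 and 0.06 at 2, 10, 20 and 30 days did not pass (limma adjusted p = 0.0573, 0.259, 0.558 and 0.784). The value at 2 days lay next to the threshold and passed without the first trained muscle (-0.42), with a filter on a mean level of at least 10 (-0.31) and in the gene-level table (-0.28). At 20 days the muscles were split. Levels of 12504 and 11565 exceeded every control and 7214 was below every control, and without the third muscle the log2 fold change was 0.36 (adjusted p = 0.0241).

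Gapdh, the enzyme that makes the first NADH of the pathway, is not named in the deposited table. On Rnor_6.0 chromosome 4, from 157676595 to 157679963, the table has LOC108351137 between Iffo1 and Ncapd2, with Nop2 and Mrpl51 next to them, and in RefSeq on GRCr8 Gapdh lies between the same neighbours. Copies of the Gapdh gene are many in rodents, and how their reads were divided was not examined. The level of LOC108351137 was 6877 ± 615 (SD, n = 12) in control muscle, and its log2 fold changes of -0.16, -0.10, 0.02 and 0.20 did not pass at any time (limma adjusted p = 0.287, 0.561, 0.915 and 0.217). It is not counted among the 9.

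Pgam2 encodes the muscle form of phosphoglycerate mutase, which moves the phosphate ahead of enolase (chromosome 14 from 86044969 to 86047163). The 3 muscles trained for 2 days had 2270.5, 1417 and 1656, and those trained for 10 days 2171, 2363 and 2332. Controls spanned 2294 to 3418 with a median of 2756. All 3 muscles at 2 days lay below every control.

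The fall of Pgam2 at 2 days was -0.66 in log2 (standard error 0.13, limma adjusted p = 6.84e-04), and it passed in each alternative run. Later log2 fold changes were -0.27, -0.06 and -0.11 (limma adjusted p = 0.146, 0.802 and 0.631). Levels at 20 days were split, with 3062 and 3063 in the upper part of the control range and 1964 below it. Pgam2 was lower than in the animal's own contralateral muscle in 9 of 12 animals.

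Enolase has a muscle form, encoded by Eno3 (chromosome 10 from 57278307 to 57283654), and a general form, encoded by Eno1 (chromosome 5 from 167288717 to 167299610). Eno3 stood at 4516, 3419 and 3643 after 2 days of training and at 4225, 4463 and 4335 after 10 days, against 4415 to 5809 (median 5062) in the controls. By 30 days the levels were 5462, 5145 and 4785, inside the control range. At 2 and at 10 days 2 of the 3 trained muscles were below every control.

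Eno3 fell at 2 days, with a log2 fold change of -0.41 (standard error 0.11, limma adjusted p = 0.00518). The change was -0.29 as deposited (adjusted p = 0.0731) and -0.32 without the second trained muscle (adjusted p = 0.0858), neither of which passed. At 10, 20 and 30 days it was -0.23, -0.09 and 0.01, and none passed (limma adjusted p = 0.112, 0.615 and 0.954).

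Eno1 had levels of 34.7, 38.4 and 39.8 at day 2, 39.1, 40.5 and 29.8 at day 10, 37.8, 38.4 and 25.5 at day 20, and 26.1, 30.0 and 30.2 at day 30. The controls ranged from 21.2 to 37.2 (median 28.8). At each of the first 3 times 2 of the 3 trained muscles lay above every control, and at 30 days none did.

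Of the 9 genes Eno1 was the one that rose, by 0.41 in log2 at 2 days (standard error 0.14, limma adjusted p = 0.0321), and this call depended on the controls. The contralateral muscles taken at 2 days had 32.2, 37.2 and 32.5, higher than the 28.4, 23.02 and 23.2 of those taken at 30 days. With animal as a block the log2 fold change at 2 days was 0.14 (adjusted p = 0.494), and it was 0.14 against the time-matched muscles too (adjusted p = 0.580). Without the second or the third trained muscle it was 0.39 or 0.37, and neither passed.

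For Eno1 the later log2 fold changes were 0.35 at day 10, 0.24 at day 20 and 0.03 at day 30 (limma adjusted p = 0.0608, 0.244 and 0.904). That at 10 days passed as deposited (0.47), in the gene-level table (0.37), with a mean level of at least 10 as the filter (0.35) and without the third trained muscle (0.49). Within animals Eno1 was higher in the trained muscle in 11 of 12, with a median ratio of 1.24.

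The ratio of Eno3 to Eno1 in a muscle does not depend on how samples were scaled to each other. It was 130, 89.1 and 91.6 at day 2, 108, 110.2 and 146 at day 10, 149, 128 and 155 at day 20, and 209, 171 and 159 at day 30. The 12 controls ranged from 156 to 214 (median 176). All 9 muscles trained for 2, 10 or 20 days lay below every control, and at 30 days the groups overlapped.

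In log2 the Eno3 to Eno1 ratio differed from control by -0.83, -0.59 and -0.34 over the first 3 times. For each of these the exact permutation test, two-sided, gave p = 0.0044, the smallest that 3 muscles against 12 allow, and 0.0117 after adjustment over the 8 ratio comparisons. All 3 animals had the lower ratio in the trained muscle at each of these times. At 30 days the difference was -0.02 (exact p = 0.870), and against the animals' own contralateral muscles it was -0.13, lower in 2 of 3 animals. With 1 trained muscle left out at these times, those that remained still lay below every control. The exact p was then 0.0220 each time, the smallest possible. Whether the adjusted value was under 0.05 was therefore set by the other ratio comparisons adjusted with it, and says nothing about single muscles for this ratio. It was above 0.05 whichever muscle was left out at 20 days (differences of -0.37, -0.25 and -0.39). The same held without the first or the second at 2 days (-1.004 and -0.73) and without the first or the third at 10 days (-0.52 and -0.73).

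Over the 12 animals the mean within-animal difference of the Eno3 to Eno1 log2 ratio was -0.45 (exact permutation over sign flips, two-sided p = 0.00195, and 0.00391 after adjustment over the 2 ratios so tested), lower in 11 animals and higher in 1.

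Pyruvate kinase, encoded by Pkm, makes ATP and pyruvate in the last step. Its levels at 2 days were 1527, 1112 and 1145, at 20 days 1682, 1693 and 1177 and at 30 days 1659, 1498 and 1694, against 1193 to 1557 (median 1484) in the controls. At 2 days 2 muscles lay below every control, at 20 days 2 lay above and 1 below, and at 30 days 2 lay above. Log2 fold changes of -0.19, -0.14, 0.07 and 0.18 did not pass at any time (limma adjusted p = 0.202, 0.379, 0.718 and 0.279), though the first did without the first muscle trained for 2 days (-0.34, adjusted p = 0.0375).

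Ldha (chromosome 1 from 102900286 to 102909708) encodes the subunit abundant in fast fibres. It stood at 1208, 888 and 945 after 2 days, 1143, 1061 and 1036 after 10 days, 1255, 1065 and 977 after 20 days and 1269, 1256 and 1347 after 30 days. The controls ranged from 1162 to 1493 (median 1288). The 3 muscles trained for 10 days were all below every control, and at 2 and 20 days 2 of 3 were.

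Ldha fell at 2 days, with a log2 fold change of -0.38 (standard error 0.10, limma adjusted p = 0.00519), though not without the second trained muscle (-0.29, adjusted p = 0.0959). At 10 days it fell again, with -0.28 (standard error 0.10, limma adjusted p = 0.0364). This call was lost with animal as a block (-0.29, adjusted p = 0.128), as deposited (-0.16), in the gene-level table (-0.20) and without any 1 of the trained muscles (-0.32, -0.27 and -0.25 without the first, the second and the third). At 20 days the log2 fold change was -0.26 (adjusted p = 0.0633), which passed without the first trained muscle (-0.36), in the gene-level table (-0.21) and with a mean level of at least 10 as the filter (-0.26). At 30 days it was -0.02 (adjusted p = 0.904).

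Ldhb (chromosome 4 from 176701983 to 176720013), the subunit of slow fibres and heart, had 56.9, 31.5 and 57.7 after 2 days, 47.6, 77.7 and 35.6 after 10 days, 79.8, 54.4 and 92.4 after 20 days and 60.7, 77.0 and 51.6 after 30 days. Its controls were spread more widely than those of Ldha, from 60.9 to 131 (median 87.4). Only at 2 days did the 3 trained muscles lie below every control, but in 12 of 12 animals the trained muscle was below its own contralateral one, with ratios from 0.376 to 0.965 (median 0.658).

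Ldhb fell by 0.90 in log2 at 2 days (standard error 0.22, limma adjusted p = 0.00328) and by 0.78 at 10 days (standard error 0.22, adjusted p = 0.00876). Without the second muscle trained for 2 days the first of these was -0.61 and did not pass (adjusted p = 0.0984). The fall at 10 days did not pass with animal as a block (-0.56, adjusted p = 0.0671), nor without the first trained muscle (-0.73, adjusted p = 0.0540) or the third (-0.53, adjusted p = 0.124). At 20 days the log2 fold change was -0.25 and at 30 days -0.50 (limma adjusted p = 0.456 and 0.112), and the latter passed as deposited (-0.72, adjusted p = 0.0106).

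The Ldha to Ldhb ratio was 21.2, 28.1 and 16.4 at day 2, 24.04, 13.7 and 29.1 at day 10, 15.7, 19.6 and 10.6 at day 20, and 20.9, 16.3 and 26.1 at day 30, where the controls had 10.6 to 20.8 (median 15.1). At 2, 10 and 30 days 2 of the 3 muscles exceeded every control, and at 20 days none did. Log2 differences from control were 0.53, 0.52, -0.0034 and 0.48 at 2, 10, 20 and 30 days. By the exact permutation test, two-sided, p was 0.0308, 0.0615, 0.971 and 0.0352, and after adjustment over the 8 ratio comparisons 0.0563, 0.0821, 0.971 and 0.0563, so none passed 0.05. The controls differed by time, with a mean ratio of 17.6 at 10 days and 11.9 at 20 days, against 15.2 over all 12. Trained muscles averaged 22.3 and 15.3 at these times. Against time-matched controls the difference was thus smaller at 10 days, and at 20 days the trained muscles were the higher ones.

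Single muscles decided the Ldha to Ldhb comparison. Without the third muscle trained for 2 days the log2 difference was 0.72, without the second at 10 days 0.83, and without the second at 30 days 0.65, each of which passed after adjustment. Over the 12 animals the mean within-animal difference was 0.38 (exact permutation over sign flips, two-sided p = 0.00391, and 0.00391 after adjustment over 2 ratios), higher in 10 animals and lower in 2.

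**Figure D2:**
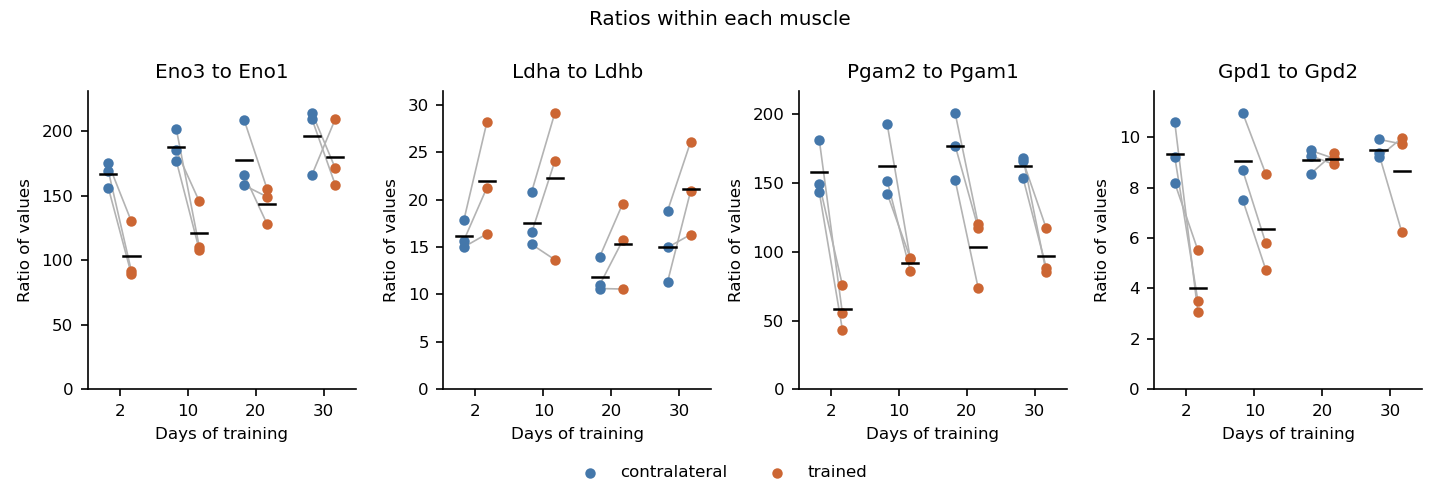
Ratios of Eno3 to Eno1, Ldha to Ldhb, Pgam2 to Pgam1 and Gpd1 to Gpd2 in every muscle (vertical axis, ratio of levels) against the day of training. Trained and contralateral muscles are separate points. The Eno3 to Eno1 ratio of trained muscles lies below the control range of 156 to 214 until day 20 and inside it at day 30, while the Ldha to Ldhb points of both groups overlap at every day.

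The same kind of ratio for other steps was taken as a description, with no test. Pgam2 to Pgam1 averaged 165 in control muscle (142 to 201) and 58.2, 92.0, 103 and 97.0 after 2, 10, 20 and 30 days, and all 12 trained muscles, at 43.4 to 119.9, lay below every control. Pfkm to Pfkp averaged 1693 in control and 921, 624, 857 and 969 in trained muscle, with Pfkp itself at a level of 0.742 in control, so this ratio rests on a small value. Aldoa to Aldoc averaged 12799.5 in control (6660 to 22992) and 13859, 18671 and 18180.0 after 2, 10 and 20 days, with Aldoc at a level of 0.808 in control. The 10-day mean depended on the third muscle, at 33491, while the other 2 had 7237 and 15285, inside the control range. The 30-day mean of 46732 was set by 1 muscle, at 114959 with an Aldoc level of 0.0833, while the other 2 had 11878 and 13360, inside the control range. Unlike the ratio of the enolases, that of the mutases had not come back into the control range at 30 days. Whether it differed from day 2 was not tested.

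Gpd1 (Gpd1-201, chromosome 7 from 141370491 to 141377929) encodes the enzyme that reduces dihydroxyacetone phosphate to glycerol 3-phosphate and so returns NAD to glycolysis. Its level was 168, 53.0 and 74.1 at day 2 and 116, 83.5 and 155 at day 10. After 20 days it was 198, 205 and 152, and after 30 days 207, 135 and 146. The 12 controls lay between 260.1 and 377 (median 325). The highest trained muscle was thus below the lowest control at every time.

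All 3 trained muscles lay below all 12 controls for Gpd1 at each time, and beside it for Pgam2 and Ldhb at 2 days and for Ldha at 10 days. That makes 3, 2, 1 and 1 of the 9 genes at 2, 10, 20 and 30 days, where 6.18%, 8.15%, 4.81% and 6.08% of all genes did so. No member had all 3 trained muscles above all 12 controls, where 8.57%, 10.0%, 8.23% and 7.48% of all genes did.

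The log2 fold change of Gpd1 was -1.87 at 2 days (standard error 0.21, limma adjusted p = 5.07e-07), which put it at position 6 from the lowest of the 11196 genes. At 10 days it was -1.48 (standard error 0.21, limma adjusted p = 1.10e-05), at position 17. It fell less at 20 days, by 0.81 (standard error 0.21, adjusted p = 0.00775), at position 111, and at 30 days, by 1.01 (standard error 0.21, adjusted p = 0.00153), at position 68. 

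Each animal showed the lower Gpd1 level in its trained muscle, 12 of 12, with ratios of trained to contralateral from 0.162 to 0.796 (median 0.450). The calls for Gpd1 at 2 and 10 days held in every alternative run, with log2 fold changes between -2.34 and -1.52 and between -1.70 and -1.26. Against only the 3 time-matched controls the falls of -0.76 at 20 days and -0.85 at 30 days did not pass (limma adjusted p = 0.0754 and 0.0590), whereas with animal as a block both did. Without the third muscle trained for 20 days the value there was -0.67 (adjusted p = 0.0703).

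The partner of Gpd1 in the glycerol phosphate shuttle is Gpd2, the mitochondrial enzyme that takes up the electrons, and Gpd1l is a relative of Gpd1. Both passed at each time, in opposite directions. Gpd2 fell by 0.63, 0.88, 0.77 and 0.86 in log2 at 2, 10, 20 and 30 days (limma adjusted p = 0.00332, 1.05e-04, 6.43e-04 and 2.91e-04) and was lower than in the contralateral muscle in 12 of 12 animals. Gpd1l rose by 0.39, 0.56, 0.48 and 0.50 (limma adjusted p = 0.00171, 3.51e-05, 3.16e-04 and 2.65e-04) and was higher in 12 of 12. In control muscle the level of Gpd1 was 324, that of Gpd2 35.4 and that of Gpd1l 22.95.

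Because Gpd1 and Gpd2 were both lower, their ratio moved less than Gpd1 alone. It averaged 9.24 in control muscle (7.50 to 10.95) and was 5.51, 3.07 and 3.501 after training for 2 days and 5.79, 4.74 and 8.53 at 10 days. At 20 days it was 9.35, 9.15 and 8.92, inside the control range, and at 30 days 9.96, 9.73 and 6.25, with 1 muscle below it.

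Direct contrasts between trained groups asked whether levels in trained muscle differed between times. They compare different animals and leave out the contralateral muscles. From 2 to 30 days 4 of the 9 genes passed, all higher at 30 days, where 15.0% of all genes passed and 7.07% were higher. They were Gpd1 with a log2 difference of 0.87 (standard error 0.27, limma adjusted p = 0.0324), Pfkm with 0.60 (standard error 0.17, adjusted p = 0.0190), Pgam2 with 0.55 (standard error 0.17, adjusted p = 0.0310) and Eno3 with 0.42 (standard error 0.13, adjusted p = 0.0351). Of the other 5, Eno1 was at -0.38 and the rest between 0.36 and 0.40.

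The contrast between 30 and 2 days depended on the controls and on single muscles. With animal as a block, where each trained muscle is set against its own contralateral one, the log2 differences were 1.16 for Gpd1, 0.71 for Pfkm, 0.78 for Pgam2 and 0.64 for Eno3, larger than above, yet 0 of the 9 genes passed (limma, 6 at an unadjusted p under 0.05), in a fit where 2.80% of all genes did. Eno1 then turned to 0.061. Against time-matched controls, where 2.58% of all genes passed, Eno3 alone did (0.64, adjusted p = 0.0437). As deposited, Eno1 alone did (-0.70, adjusted p = 0.00374), where 29.2% of all genes passed and the median log2 difference of all genes was -0.268. Without the second or the third muscle trained for 2 days, or the first trained for 30 days, 0 passed (limma, with 3, 5 and 6 at an unadjusted p under 0.05), where 6.47%, 9.66% and 12% of all genes did. Without the first muscle trained for 2 days 7 passed, where 19.1% of all genes did, and without the second or the third muscle trained for 30 days 2 passed, where 10.8% or 9.82% did.

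Between successive times none of the 9 genes passed, where 1.93% of all genes did from 2 to 10 days, 0.170% from 10 to 20 days and 0.0357% from 20 to 30 days (limma, with 1, 2 and 0 of the 9 genes at an unadjusted p under 0.05). The change of Gpd1 from 2 to 10 days, 0.39, was 0.86 without the first muscle trained for 2 days and then passed (adjusted p = 0.0252). Scaling bears on these time courses. On the values as deposited the median log2 fold change of all genes was -0.181 at 30 days, against -0.0059 after rescaling, and all 9 genes were then below 0 at 30 days. The share of passing genes that were higher was 74.5%, 75.4%, 61.0% and 20.0% at 2, 10, 20 and 30 days on those values, and 53.4%, 53.9%, 54.9% and 54.0% after rescaling.

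Mitochondrial messenger RNA took up 31.7% of the deposited total in control muscle on average (27.8% to 43.7%), 26.3%, 24.96% and 33.2% after 2, 10 and 20 days of training and 42.3% after 30 days. Its part in the values of the 9 genes was not tested.

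Among 19 other glycolytic enzymes 15 were in the table and 12 were tested. At 2 days 4 were higher and 5 lower, at 10 days 5 and 3, at 20 days 5 and 1, and at 30 days 4 and 0. Over all genes 15.4%, 15.6%, 11.7% and 11.1% were higher and 13.5%, 13.3%, 9.64% and 9.46% lower at these times, and the counts of the lists below stand beside the same shares. Hexokinase 2 (Hk2), which traps glucose in the fibre, rose by 1.44, 1.42, 1.82 and 1.47 in log2 at 2, 10, 20 and 30 days (limma adjusted p = 1.85e-07, 2.04e-07, 7.11e-09 and 3.06e-07). Its level was 25.7 ± 3.55 (SD, n = 12) in control muscle and higher in the trained muscle in 12 of 12 animals. The general mutase Pgam1 rose by 0.84, 0.54, 0.61 and 0.63 (limma adjusted p = 3.03e-05, 0.00261, 0.00129 and 0.00105), from levels of 12.3 to 23.8 in the controls to 23.5 to 32.6 in trained muscle.

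The enzymes of that list that fell most were Ldhd, a dehydrogenase of D-lactate, with -0.75 at 2 days, and Gpi, which converts glucose 6-phosphate to fructose 6-phosphate, with -0.63 at 10 days (limma adjusted p = 4.54e-05 and 2.17e-04). Gpi was lower in the trained muscle in 12 of 12 animals, with log2 fold changes of -0.52, -0.32 and -0.30 at the other 3 times, of which the first passed (limma adjusted p = 0.00166, 0.0581 and 0.0732). Hk2 and Gpi, which act one after the other, thus moved in opposite directions.

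Fructose 2,6-bisphosphate, the activator of phosphofructokinase, is made and removed by enzymes whose 5 genes were all tested. At 2 and at 10 days 3 were lower and 0 higher, at 20 days 1 was lower and 1 higher, and at 30 days 1 was higher and 0 lower. Pfkfb3 fell by 1.48 and Pfkfb1 by 1.09 at 2 days (limma adjusted p = 0.00155 and 3.65e-05). Pfkfb2 rose by 0.51 at 30 days (adjusted p = 0.0260), a change that rests on small values. Its levels were then 2.39, 1.10 and 2.27, against 0.592 to 1.38 in the controls, so the second muscle lay inside their range.

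The malate-aspartate shuttle is the other route by which cytosolic NADH passes electrons to the mitochondria, and 6 of its 7 genes were tested. At 2 days 4 were lower and 0 higher, at 10 days 1 and 1, at 20 days 2 were higher and 0 lower, and at 30 days 3 and 0. The 1 of 6 each way at 10 days stands beside 15.6% higher and 13.3% lower of all genes. Mdh1 and Mdh2 fell by 0.49 and 0.42 at 2 days (limma adjusted p = 0.00342 and 0.00523). Got1 rose by 0.87 and Got2 by 0.47 at 30 days (limma adjusted p = 1.38e-05 and 6.52e-04). At 30 days, then, Gpd1 and Gpd2 passed as lower while 3 genes of this other shuttle passed as higher.

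Of 4 genes for lactate transport 3 were tested, and 1, 1, 2 and 2 were higher at 2, 10, 20 and 30 days, none lower. Bsg, whose protein carries the lactate transporters to the cell surface, rose by 0.55 at 10 days, and the transporter gene Slc16a1 by 0.42 at 30 days (limma adjusted p = 4.36e-04 and 0.0130).

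To see which genes went with the members from animal to animal, the 12 within-animal log2 differences of each were correlated with those of 3841 genes with a mean level of at least 10. The 12 animals include 4 durations of training, so a shared time course is part of each r, and these values are descriptions without a p. For Gpd1 the most alike gene outside the 10 was Gpi (Pearson r = 0.947, Spearman rho = 0.958, n = 12, and r = 0.909 without the 2 animals farthest from the median), and others high in the order were NEWGENE_1582994 (r = 0.946), Cd24 (r = 0.944) and Acsl6 (r = 0.936). Among the other members r with Gpd1 was 0.970 for Pfkm, 0.916 for Pkm, 0.901 for Eno3, 0.869 for Pgam2, 0.771 for Aldoa and 0.734 for Ldha, but 0.199 for Ldhb and -0.0857 for Eno1. Without the 2 animals farthest from the median of Gpd1 the last 3 were 0.302, -0.460 and -0.484, and without the 2 farthest for the other gene of the pair they were 0.647, -0.112 and 0.517, so these 3 depend on which animals are left out, and those of Ldhb and Eno1 change sign.

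Eno3 was most like Dlst (r = 0.954, rho = 0.909), Gamt (r = 0.953), Slc25a4 (r = 0.951), Fahd2a and Pgk1 (both r = 0.948), with 0.954 for Pgam2 and 0.204 for Eno1 among the members (for Eno1 -0.0438 without the 2 animals farthest for Eno3, and 0.691 without those farthest for Eno1). Ldha was most like Ubl4a (r = 0.967, rho = 0.930), Mrpl48 (r = 0.964), Mrps36 (r = 0.963), RGD1562690 (r = 0.961) and Hrc (r = 0.953). Without the 2 farthest animals the first of these were 0.922 for Dlst and 0.952 for Ubl4a. Over all 12 animals the r of Eno1 with the other members ran from -0.0857 for Gpd1 to 0.751 for Ldhb, and without the 2 animals farthest for Eno1 from 0.514 for Pfkm to 0.691 for Eno3. That of Ldhb ran from 0.199 for Gpd1, with 0.638 for Ldha, to 0.751 for Eno1, and without the 2 farthest for Ldhb from -0.112 to 0.649 for the same 2 ends. For Ldhb with Ldha r was then 0.43, and it was 0.293 without the 2 animals farthest for Ldha.

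Eno1 was most like genes of haemoglobin: Hba-a1 (r = 0.967, rho = 0.888, and r = 0.959 without the 2 farthest animals), Hba-a2 (r = 0.948), Hbb (r = 0.887) and Hbb-bs (r = 0.851), with Fitm1 (r = 0.876) between them. In a list of 7 red blood cell genes 5 were in the table, with Hba-a1 the most abundant at a mean level of 287 and Alas2 and Slc4a1 under 1, and 0 of the 4 tested passed at any time (limma, 0 at every comparison with control). Their summed level in the controls ran from 374 to 1145 (median 536), the highest in the first contralateral muscle of 30 days. In trained muscle the sums were 589, 470.1 and 702 at day 2, 542, 842 and 352 at day 10, 669.9, 665 and 438 at day 20, and 623, 658 and 639 at day 30. The part of blood in the muscle in the Eno1 values was not tested.

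Ldhb was most like Myl2 (r = 0.907, rho = 0.867), Map2k6 (r = 0.895), Oxnad1 (r = 0.878), Myl3 (r = 0.877) and Schip1 (r = 0.836). Without the 2 animals farthest from the median r was 0.776 for Myl2. Myl2 and Myl3 belong to a list of 7 slow fibre genes, all in the table, with Myl3 the most abundant at a mean level of 717. Of these 7, 4 were lower at 2 days, 1 at 10 days and 0 at 20 and 30 days, and 0 were higher at any time.

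The summed level of the slow fibre list was 1214 to 2450.5 in the controls (median 1515). After 2 days of training it was 1037, 759.9 and 1158, all below the controls, and 888, 1946 and 636 at 10 days. After 20 days the sums were 1369.5, 1214 and 1489 and after 30 days 1472, 1749 and 980.4. The muscle with the high sum at 10 days was also the one with the highest Ldhb of its group. The part of the share of slow fibres in the Ldhb values was not tested.

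**Figure D3:**
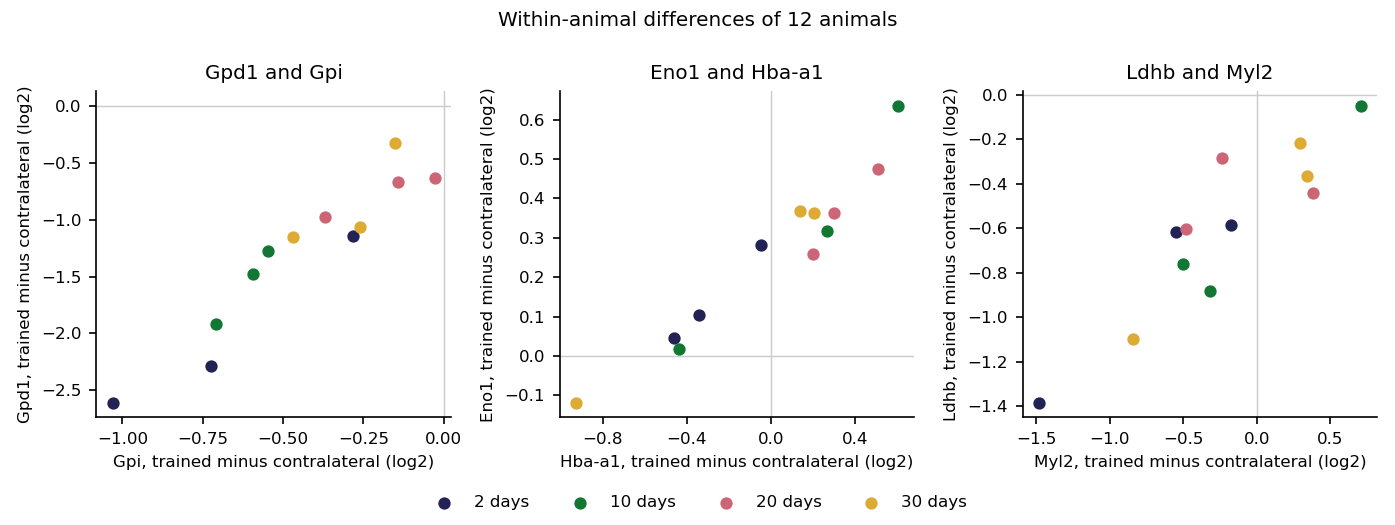
Within-animal log2 difference, trained minus contralateral, of Gpd1 with Gpi, of Eno1 with Hba-a1 and of Ldhb with Myl2, 1 point for each of the 12 animals. The points follow a line in each panel, with Pearson r of 0.947, 0.967 and 0.907.

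Other cell types were read from lists of marker genes. Acta1 was the most abundant of the muscle fibre genes, with a mean level of 27430.2, and Ttn has no transcript in the table. Their summed level was 44052 to 55628 in the controls and averaged 49365, 58666, 56525 and 48817 in trained muscle, with 1, 3, 2 and 1 of 4 genes higher and 1 lower at each time. Fast fibre genes summed to 54587 to 65445 in the controls (median 60766), and 3, 4, 4 and 4 of 7 tested were lower and 0, 1, 0 and 0 higher at 2, 10, 20 and 30 days. Myh4 was the most abundant of them, a symbol to which the table assigns transcripts of several myosin genes, and Atp2a1 has no transcript there.

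The fast fibre sums in trained muscle were 54223, 46811 and 49452 at day 2, 49474, 55448 and 47814 at day 10, 55123, 43811 and 37221 at day 20, and 44482, 47349.7 and 49505 at day 30. The means were 50162, 50912, 45385 and 47112 at 2, 10, 20 and 30 days, and that at 20 days was lowest through the third muscle. At 20 and at 30 days 8 of the 9 genes did not pass. The part of the fast fibre genes in the falls of the members was not tested.

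Macrophage genes went the other way, with 6, 7, 8 and 8 of 8 higher. Lyz2 was the most abundant, at a mean level of 30.5, and Adgre1 was under 1. Their summed level was 15.7 to 34.9 in the controls (median 25.3), and day 2 of training had 59.6, 150.3 and 107. It was 102, 88.0 and 46.9 at 10 days, 63.6, 68.0 and 77.9 at 20 days and 68.0, 89.0 and 77.3 at 30 days. Every trained muscle was above every control, and the muscle with the highest sum at 2 days, the second, was the one with the lowest Gpd1. The highest sum and the lowest Gpd1 also met in the same muscle at 20 and at 30 days. At 10 days they did not, with the highest sum in the first muscle and the lowest Gpd1 in the second.

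Of 6 fibroblast genes 4, 6, 6 and 6 were higher. Their summed level, led by Col3a1, was 89.7 to 276 in the controls (median 192) and 321, 519 and 436 at day 2, 1021, 627 and 541 at day 10, 633, 602 and 654 at day 20, and 387, 447 and 449.7 at day 30. The highest sum and the lowest Gpd1 met in the same muscle at day 2 (the second) and at day 20 (the third). At day 10 and day 30 they did not. The highest sum was then in the first and in the third muscle, and the lowest Gpd1 in the second both times. What part RNA from macrophages and fibroblasts had in the lower levels of the enzymes was not tested.

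Endothelial genes had 0, 2, 2 and 2 of 5 higher and 1, 0, 0 and 0 lower, satellite cell genes 1, 1, 0 and 0 of 2 higher and 1, 0, 0 and 0 lower, and smooth muscle and pericyte genes 3, 2, 1 and 1 of 5 higher and 1, 0, 0 and 0 lower. Of 4 Schwann cell genes 2 were lower at 30 days and 0 passed before, and of 5 adipocyte genes 0, 1, 1 and 1 were higher, with Fabp4 the most abundant. Their parts were not tested.

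The 250 bases ahead of the start of 4 genes are shown, from a table of RefSeq promoters on GRCr8 that holds 12 promoters for 9 of the 10 genes and none for Gpd1. Pgam2 and Eno3 are muscle forms that fell at 2 days, and Ldha and Ldhb are the subunits whose ratio was followed. Capitals mark 3 motifs searched on both strands: CANNTG, the E-box of basic helix-loop-helix factors, the frame of the MEF2 box (CTA, any 4 bases, TAG) and ACGTG, the core of the hypoxia response element. CACGTG holds CANNTG and also ACGTG on both strands. The windows are chr14:84897875-84898124 on the minus strand for Pgam2, chr10:55868936-55869185 on the plus strand for Eno3, chr1:106507842-106508091 on the plus strand for Ldha and chr4:177177409-177177658 on the minus strand for Ldhb.
Pgam2: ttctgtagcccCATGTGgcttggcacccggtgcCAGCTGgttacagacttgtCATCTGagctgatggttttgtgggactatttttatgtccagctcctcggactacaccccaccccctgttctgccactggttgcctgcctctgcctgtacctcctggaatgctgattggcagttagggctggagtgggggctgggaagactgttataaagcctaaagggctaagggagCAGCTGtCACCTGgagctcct
Eno3: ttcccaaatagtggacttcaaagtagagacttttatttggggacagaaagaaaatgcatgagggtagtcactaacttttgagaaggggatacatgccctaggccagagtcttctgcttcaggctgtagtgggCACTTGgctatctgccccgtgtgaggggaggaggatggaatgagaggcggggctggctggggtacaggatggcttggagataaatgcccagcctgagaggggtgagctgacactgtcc
Ldha: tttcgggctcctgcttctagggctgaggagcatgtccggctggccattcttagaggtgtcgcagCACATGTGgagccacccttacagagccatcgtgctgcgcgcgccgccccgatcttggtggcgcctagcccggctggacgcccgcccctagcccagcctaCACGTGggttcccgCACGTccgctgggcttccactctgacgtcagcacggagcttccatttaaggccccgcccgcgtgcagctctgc
Ldhb: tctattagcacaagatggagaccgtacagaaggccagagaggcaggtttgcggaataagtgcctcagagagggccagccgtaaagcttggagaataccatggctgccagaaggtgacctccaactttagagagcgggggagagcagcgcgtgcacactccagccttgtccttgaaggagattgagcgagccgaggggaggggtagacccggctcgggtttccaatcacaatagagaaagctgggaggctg

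Pgam2 has 5 matches to CANNTG and Eno3 has 1, neither has another motif, Ldha has 3 of CANNTG and 3 of ACGTG, and Ldhb has 0 of all 3. Pfkm, a muscle form whose window is not shown, has 0 of CANNTG, 0 of the MEF2 frame and 1 of ACGTG. Among 33469 promoter windows of this length 65.5% hold CANNTG, 3.41% the MEF2 frame and 16.6% ACGTG. In the other windows of these genes the MEF2 frame occurs in 2 of the 3 listed for Aldoa. A match describes letters in a window, and binding was not measured.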

How the data were processed

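Poly-A RNA from both tibialis anterior muscles of 12 rats was sequenced by the authors, who aligned paired-end reads to Rnor_6.0 (rn6) with STAR in Partek Flow and quantified Ensembl transcripts. The authors deposited TPM-type values for 20027 transcripts, scaled by them to a total of 634431 per sample and taken here as scaled for length. The scaling for length was inferred from the equal totals and was not tested, and the table's name speaks of DESeq2 counts. The depth of each sample and the precision it gives cannot be read from these values. A gene-level table deposited by the authors in units of signal (4635 genes) was used as an alternative. Their own comparison table was not analysed here.

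Each sample's values were rescaled by its median-of-ratios factor (0.778 to 1.14, from 16230 transcripts above 0 in all samples) and summed per gene symbol. Genes with a level of at least 1 in at least 3 samples were kept. limma 3.58.1 (R 4.3.3) was run on log2(level + 1) with 5 groups, the 12 contralateral muscles pooled, and p-values were adjusted by Benjamini-Hochberg over all genes within a comparison, with a threshold of 0.05. Ratios were tested by exact permutation, two-sided. Python 3.11.15, numpy 2.4.6, pandas 2.3.3, scipy 1.17.1 and matplotlib 3.10.9 were used.

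The members and lists were chosen with earlier results of these data known. Genes named from a list are up to 2 that rose and 2 that fell most, at any time, and for likeness the 5 with the highest r. The fit was tested on simulated data, in 10 draws with few changed genes. For 2 days against control it recovered 51% of log2 changes of 0.5 and 92.6% of those of 1. Of the calls 4.65% were false. A change of 0.5 or less that did not pass may thus have been missed. Of 276 pairs of libraries 0 were identical. Deviations from group means had a median r of 0.139 between the muscles of an animal (12 animals, -0.0767 to 0.306) and -0.000262 between animals. Alternatives were the values as deposited, a pseudocount of 0.1, no filter, a mean level of at least 10, the main transcript of each gene, controls matched by time (8 groups), animal as a block, an intensity trend, an adjusted p of 0.01, the gene-level table and leaving out each trained muscle or the first contralateral muscle of 30 days, which had 43.7% mitochondrial messenger RNA. Ratios were also taken after adding 1 to each level.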

Additional observations from a re-analysis of the deposited data

Results flagged for a closer look

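Levels in trained muscle differed between 30 and 2 days for 4 of the 9 genes, by a limma contrast of the trained groups. All 4 were higher at 30 days, where 15.0% of all genes passed and 7.07% were higher. This contrast compares different animals and leaves out their contralateral muscles. The log2 difference was 0.60 for Pfkm (adjusted p = 0.0190), 0.55 for Pgam2 (adjusted p = 0.0310), 0.42 for Eno3 (adjusted p = 0.0351) and 0.87 for Gpd1 (adjusted p = 0.0324). With animal as a block the differences were larger (0.71, 0.78, 0.64 and 1.16 in the same order) and none of the 4 passed, in a fit where 2.80% of all genes did. Against time-matched controls Eno3 alone passed, where 2.58% of all genes did. A difference in the effect of training was thus not found for the other 3 in either fit.

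For Pkm the trained muscle was below its contralateral one in all 3 animals at 10 days (ratios 0.834, 0.842 and 0.893) and above it in all 3 at 30 days (1.196, 1.15 and 1.13). The mean within-animal log2 difference at 30 days minus that at 10 days was 0.44, and this difference was not tested.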

How the results depend on the processing

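Over the alternatives, 545 of 657 log2 fold changes of the members kept their direction and their side of the threshold, 24 changed direction, 25 passed anew and 63 no longer passed. None of the values that changed direction had passed before or after. Of the ratios 67 of 88 and of the counts of members 100 of 124 stayed the same, the latter within 1.5 times. Values without counts leave the effect of depth untested.

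Beside each count of members the share of all genes that passed in the same fit is given in parentheses. The count at 10 days, 4 (28.9%), was 1 with time-matched controls (17.9%), 1 with animal as replicate block (20.1%) and 2 at an adjusted p of 0.01 (18.3%). At 20 days, 1 (21.4%) became 2 with a mean level of at least 10 (27.7%), 0 with time-matched controls (14.2%) and 2 in the gene-level table (22.9%). At 30 days, 1 (20.6%) became 2 as deposited (28.7%) and 0 with time-matched controls (10.0%). For 30 against 2 days, 4 (15.0%) became 1 as deposited (29.2%), 1 with time-matched controls (2.58%), 0 with animal as replicate block (2.80%), 7 in the gene-level table (27.7%) and 0 at an adjusted p of 0.01 (6.98%). Leaving out 1 muscle gave 2 to 9 at 2 days (13.5% to 31.3%), 1 to 4 at 10 days (19.2% to 28.9%), 1 to 2 at 20 days (15.5% to 21.4%) and 0 to 7 for 30 against 2 days (6.47% to 19.1%).

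With time-matched controls or animal as replicate block (the same values), log2 fold changes at 20 days turned to 0.14 for Pfkm, 0.14 for Pgam2 and 0.080 for Eno3, the Ldha to Ldhb ratio at 20 days to 0.33 and Eno1 for 30 against 2 days to 0.061. The replicate block changed no call of a member at 2, 20 or 30 days other than Eno1 at 2 days. The Eno3 to Eno1 ratio was then -0.71, -0.65, -0.30 and -0.13 at 2, 10, 20 and 30 days and could not pass, since 3 muscles against 3 allow no exact p under 0.1 and 3 sign flips none under 0.25. As deposited, the values at 30 days were -0.21 for Pfkm, -0.17 for Aldoa, -0.21 for Eno3, -0.18 for Eno1 and -0.045 for Pkm, after a shift of all genes. The gene-level table gave 0.032 for Pfkm at 20 days and 0.019 for Ldha at 30 days.

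Leaving out 1 muscle moved log2 fold changes at 20 days between -0.085 and 0.11 for Pfkm, -0.036 and 0.36 for Aldoa, -0.17 and 0.15 for Pgam2, -0.21 and 0.049 for Eno3, and -0.020 and 0.24 for Pkm, and at 30 days between -0.068 and 0.077 for Pfkm, -0.034 and 0.061 for Eno3, and -0.0029 and 0.098 for Eno1. The Eno3 to Eno1 ratio lay between -1.004 and -0.73 at 2 days, -0.73 and -0.52 at 10 days, -0.39 and -0.25 at 20 days and -0.14 and 0.064 at 30 days, where 2 muscles against 12 allow no exact p under 0.0220. The Ldha to Ldhb ratio lay between 0.33 and 0.72 at 2 days, 0.29 and 0.83 at 10 days, -0.20 and 0.24 at 20 days and 0.31 and 0.65 at 30 days. Other than where fewer samples or a shift of all genes set the change, the cause was not tested.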
